A study of Mus musculus with 220 samples.

Results

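High endothelial cells (HEC) form the lining of lymph node venules that admit lymphocytes from the blood. Of 64 inflamed HEC, 21 had a Top2a FPKM of 1 or more and 43 had less, and these classes of cells are compared here over all other genes. FPKM express a cell's fragments for a gene relative to transcript length and to sequencing depth. Cells were selected on Top2a alone, so Top2a is given as a description and not as a result. Top2a encodes DNA topoisomerase II alpha, which untangles DNA strands and whose transcript is made mainly in cells that replicate DNA and divide. The Top2a values of the 21 cells ran from 1.01 to 103 with a median of 2.30. Just inside the limit lay cells 11 and 59, at 1.01 and 1.06, and just outside it lay cells 17 and 45, at 0.91 and 0.94. Of the 43 cells below the limit, 19 had a value of 0.

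The study profiled 220 single endothelial cells from C57BL/6 mouse lymph nodes, isolated by flow sorting, each captured on the Fluidigm C1 system and sequenced as its own Nextera XT library. The inflamed HEC came from mice given 4% oxazolone, a contact sensitiser, on the skin, with harvest on day 3. The other groups, used to place the Top2a level and, for the homeostatic HEC, to repeat the split, were 79 HEC and 32 blood endothelial cells (BEC) labelled homeostatic, and 44 dedifferentiated HEC from mice that had received LTBR-Ig, a lymphotoxin-capturing receptor, as 1 dose into the peritoneum, with harvest on day 7. All groups carry the same strain label, and no genetic change, age or sex is named. The labels name no animal or capture chip, so each group is 1 sample, and they do not name the sort markers. Differences and SDs below describe cells of that sample, no test was made, and whether cells of 1 class came from 1 animal or chip cannot be told apart from the class. The profiles of inflamed cells 43 and 60 nearly coincided (r of log2 values 0.988, where the runner-up among 2080 pairs had 0.677), and the pair was averaged as 1 cell, which fell below the Top2a limit.

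A dividing cell first licenses and fires its replication origins and copies its DNA in S phase, with the MCM helicase, DNA polymerases and the enzymes of nucleotide supply. It then builds the kinases, cyclins, kinetochores and motor proteins of mitosis, whose transcripts peak later, in G2 and M phase. HEC are venous endothelial cells specialised for lymphocyte traffic: they make sialomucins such as GlyCAM-1, the enzymes that decorate them into L-selectin ligands, and the chemokine CCL21. Inflammation of a draining node is known to be accompanied by endothelial division.

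The cells of both classes were endothelial. Pecam1 and Cdh5, an adhesion and a junction protein of endothelium, were detected at 1 FPKM or above in all 64 cells, as were Glycam1, Ccl21a and Enpp2. The summed level of the 8 high endothelial markers ran from 3016 to 197761 FPKM in the 21 cells (median 17624) and from 3132 to 231276 in the 43 (median 41813). The median number of detected genes (1 FPKM or above) was 3744 in the 21 cells and 4006 in the 43, and the median summed FPKM was 618010 and 608866. Of the markers of other cell types, 3 or more of 1 type reached 10 FPKM in 2 of 21 cells (9.52%, exact 95% interval 1.18 to 30.4) and 4 of 43 (9.30%, 2.59 to 22.1). Those in the 21 were cells 22 and 23, both with 3 or more general leukocyte markers. In cell 23, 9 general leukocyte markers and 3 markers of B lymphocytes and plasma cells reached 10 FPKM. Its leukocyte gene Ptprc was at 27.2 FPKM and its B cell gene Cd79a at 379.

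Whether the cells at a Top2a of 1 or more were cycling was checked on Mki67, the gene of the proliferation antigen Ki-67, and Cdk1, the kinase that starts mitosis. In the 21 cells, Mki67 was 0 at the lowest, 0.57 at the median and 106 at the highest FPKM, against 0, 0.11 and 22.1 in the 43. Cdk1 was 0, 0.22 and 260 in the 21 cells and 0, 0 and 38.4 in the 43. Each gene was thus below 1 FPKM at the median of both classes, and the ranges overlapped. Mki67 was at 1 FPKM or above in 8 of 21 cells (38.1%, 18.1 to 61.6) and 8 of 43 (18.6%, 8.39 to 33.4), and Cdk1 in 8 of 21 and 9 of 43 (20.9%, 10.04 to 36.04). At least 1 of both genes reached 10 FPKM in 11 of 21 cells (52.4%) and 5 of 43 (11.6%). On these markers the name cycling did not hold for every cell of the class, and some cells below the limit carried them. The classes are therefore called Top2a-positive and Top2a-negative, after the rule.

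**Figure D1:**
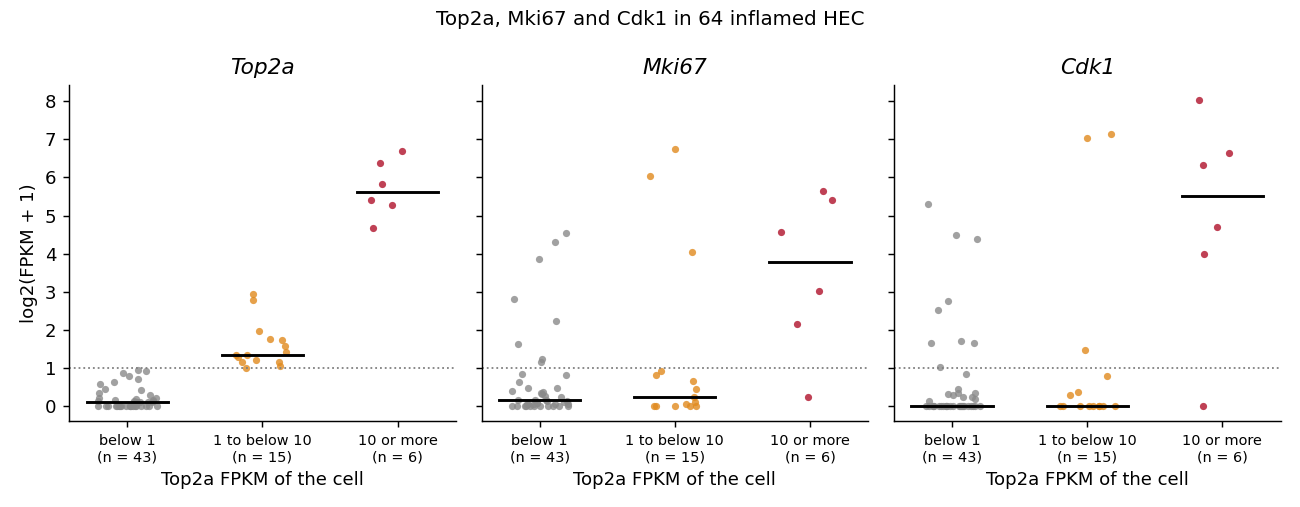
Top2a, Mki67 and Cdk1 in each of 64 inflamed HEC as log2(FPKM + 1) on the vertical axis, with cells split by their own Top2a FPKM on the horizontal axis; points are cells, bars are medians and the dotted line marks an FPKM of 1. The Top2a panel shows the values that selected the cells, and Mki67 and Cdk1 are near 0 in most cells at a Top2a of 1 to below 10 and above an FPKM of 1 in 5 of the 6 cells at 10 or more.

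The Top2a-positive cells were not alike among themselves. In 15 the Top2a FPKM was between 1 and 10, and in 13 cells it was below 3, while 6 cells stood at 24.4 (cell 47), 37.9 (cell 32), 41.6 (cell 8), 55.4 (cell 6), 81.9 (cell 42) and 103 (cell 49). Mki67 or Cdk1 reached an FPKM of 10 in 6 of those 6 cells and in 5 of the 15. Results are therefore given for all 21 cells and for both levels of Top2a, each against the same 43 cells, so that the values of the 3 comparisons share their reference. The median number of detected genes was 4491 in the 6 cells and 3732 in the 15. Counts in cells matched on this number are given below for the 21 cells, and its part at the single levels of Top2a was not tested.

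The promoters of the genes that led the cell cycle lists are shown first, since S phase and mitotic genes are known to be switched by different promoter elements. E2F factors act through E2F sites on replication genes, and the DREAM complex, with MuvB and B-Myb, acts through the cell cycle homology region (CHR) of mitotic genes, often beside CCAAT boxes bound by NF-Y. The 150 bases before the start of the 3 mitotic and the 3 replication genes with the largest difference are printed 5′ to 3′ on the gene's strand, from RefSeq (GRCm38.p6). Capitals mark the letters searched on both strands, which were TTTGAA for the CHR, seen as TTCAAA when on the opposite strand. The CCAAT box was searched by its name and by its reverse, ATTGG, and the E2F site as TTTCGCGC or TTTGGCGC, with their reverses GCGCGAAA and GCGCCAAA. Cdk1, at chr10:69352913-69353062 (minus strand), Cenpa, at chr5:30666736-30666885 (plus), and Birc5, at chr11:117849087-117849236 (plus), are the mitotic genes. Rfc3, at chr5:151651209-151651358 (minus), Dbf4, at chr5:8422717-8422866 (minus), and Fen1, at chr19:10204394-10204543 (minus), are the replication genes.
Cdk1: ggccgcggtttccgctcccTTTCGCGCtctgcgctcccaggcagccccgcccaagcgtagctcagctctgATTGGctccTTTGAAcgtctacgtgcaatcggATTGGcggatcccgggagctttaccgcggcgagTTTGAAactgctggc
Cenpa: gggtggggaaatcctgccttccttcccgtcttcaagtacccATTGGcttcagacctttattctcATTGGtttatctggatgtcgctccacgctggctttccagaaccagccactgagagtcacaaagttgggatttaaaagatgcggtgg
Birc5: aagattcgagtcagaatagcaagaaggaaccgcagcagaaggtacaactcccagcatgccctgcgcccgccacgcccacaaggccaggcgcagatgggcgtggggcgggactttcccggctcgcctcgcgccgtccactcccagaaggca
Rfc3: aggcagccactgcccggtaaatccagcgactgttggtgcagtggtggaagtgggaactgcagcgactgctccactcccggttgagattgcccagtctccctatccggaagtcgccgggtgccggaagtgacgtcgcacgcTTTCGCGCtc
Dbf4: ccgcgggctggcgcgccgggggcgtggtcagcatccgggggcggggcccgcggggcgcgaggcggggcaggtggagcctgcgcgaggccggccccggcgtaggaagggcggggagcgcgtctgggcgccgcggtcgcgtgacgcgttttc
Fen1: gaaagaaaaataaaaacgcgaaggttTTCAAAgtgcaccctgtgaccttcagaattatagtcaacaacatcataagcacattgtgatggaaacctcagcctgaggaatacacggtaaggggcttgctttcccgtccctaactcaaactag
The Cdk1 stretch held all 3 kinds of letters, Cenpa only CCAAT, Rfc3 only the E2F letters and Fen1 only the CHR letters, and the Birc5 and Dbf4 stretches held none. Fen1 has 2 windows, of which the first is printed. For Birc5 and Fen1 the bases after the start were not found near the start of an annotated transcript of the gene. Their results therefore hold for the printed stretches only. Over windows from 250 bases before to 50 after the start, the CHR letters were found for 44 of 75 matched mitotic genes (58.7%) and 8 of 37 replication genes (21.6%), against 2960 of 16778 genes of the table (17.6%). The E2F letters were found for 6.67% of mitotic, 27.03% of replication and 1.24% of all genes, and CCAAT for 69.3%, 56.8% and 42.1%. Of the 49 mitotic genes that were higher at a Top2a FPKM of 10 or more, 38 had a window, and 27 of these (71.1%) held the CHR letters. Of the 34 replication genes that were higher there, 28 had a window, and 7 of these (25%) held the E2F letters. These are matches of letters and not measured sites.

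A difference below is the mean of log2(FPKM + 1) over one class of cells minus that over the other, and a gene is counted as higher or lower where it is 1 or more in size, a scale on which the change of genes with low levels is understated. Of 241 cell cycle genes on 14 lists, Top2a left out, 34 were higher and 0 lower in the 21 Top2a-positive cells than in the 43 negative cells. Over the 9412 genes not little detected, 3.86% were higher and 4.06% lower, and the median difference was 0.41 over the 241 genes against -0.02 over all. In the 6 cells at a Top2a FPKM of 10 or more, 127 of the 241 were higher and 0 lower, where 17.2% of 10354 genes were higher and 7.02% lower. In the 15 cells at 1 to below 10, only 9 were higher and 2 lower, where 3.83% of 9521 genes were higher and 7.49% lower. These shares over all genes are the reference for the list counts of the same comparisons below. Little detected means that at most 10% of the cells of either class reached 1 FPKM, and 176 of the 241 genes were above that level in the comparison of all 21 cells. For all 34 higher genes the ranges of the classes overlapped and the difference was smaller than the larger of the SDs over cells.

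**Figure D2:**
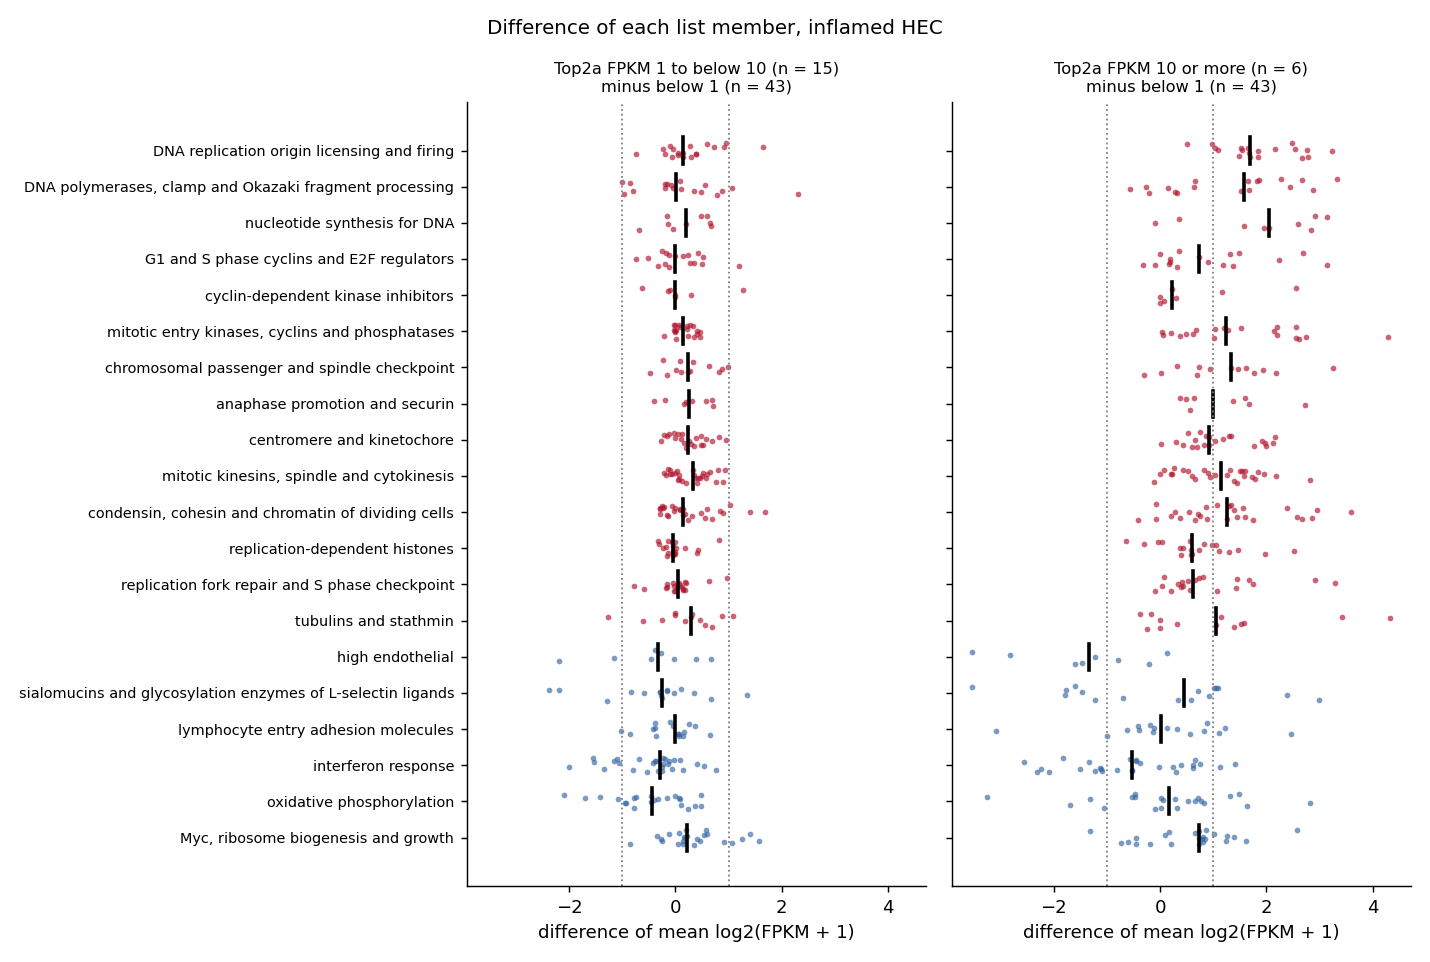
Difference of mean log2(FPKM + 1) on the horizontal axis for every measured member of each list on the vertical axis, for cells at a Top2a FPKM of 1 to below 10 (left) and 10 or more (right), each minus the cells below 1; points are genes, bars are list medians over all members and dotted lines mark differences of 1 and -1. Cell cycle lists (red) are centred near 0 on the left and shifted to the right in the right panel, where 127 of 241 members pass 1, and the high endothelial list has 5 of 8 members below -1.

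Genes of DNA replication came first. The MCM2-7 complex is the helicase loaded at origins, and Dbf4 activates the Cdc7 kinase that fires them. Mcm6 was 0, 0.95 and 314 FPKM at the lowest, median and highest of the 21 cells and 0, 0.16 and 330 in the 43, a difference of 1.22 (SDs 2.88 and 2.18). Dbf4 was 0, 0.16 and 278 in the 21 and 0, 0 and 44.4 in the 43, and it reached 1 FPKM in 9 of 21 cells and 2 of 43. Its difference was 1.8 (SDs 2.81 and 0.86), with 2.15 in the 6 cells and 1.66 in the 15. Mcm4 (1.04), Mcm7 (1.13) and Gins4 (1.15), a subunit of the helicase cofactor GINS, completed the 5 of 19 origin genes that were higher. At a Top2a of 10 or more 17 of the 19 were higher, and in the 15 cells Dbf4 alone was.

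Among 18 polymerase, clamp and Okazaki fragment genes, 2 were higher in the 21 cells. Fen1, the flap endonuclease that trims Okazaki fragments, was 0, 0 and 175 FPKM in the 21 cells and 0, 0 and 58.5 in the 43, a difference of 1.57 (SDs 2.66 and 1.33). It was at 1 or more in 5 of the 6 cells with the most Top2a and 4 of the 15. Rfc3, a subunit of the loader of the sliding clamp, had a difference of 1.83 (SDs 3.61 and 0.97) with the opposite order, 0.65 in the 6 cells and 2.30 in the 15, and was detected in 1 of the 6. Its sign turned when cells were split by Mki67 (-0.63) or Cdk1 (-0.0378). Pcna, the clamp itself, was 0, 16.1 and 835 FPKM in the 21 cells and 0, 2.77 and 546 in the 43, a difference of 0.84 that did not reach the limit, and of 2.67 in the 6 cells. Of 9 genes of nucleotide supply, 3 were higher in the 21 cells, among them Rrm2 (1.06), a subunit of ribonucleotide reductase, and Tk1 (1.04), thymidine kinase, and 7 were higher in the 6 cells.

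Of 17 cyclin and E2F genes of G1 and S phase, 3 were higher in the 21 cells. Slbp, which binds the stem-loop of histone mRNA, differed by 1.49 (SDs 3.61 and 2.53), and Uhrf1, which carries DNA methylation through replication, by 1.10 (SDs 2.65 and 1.92) and by 3.14 in the 6 cells. Ccnd1, the D-type cyclin that starts G1, was abundant throughout, at 10.4, 206 and 471 FPKM in the 21 cells and 3.78, 245 and 678 in the 43, a difference of -0.19. Among 7 inhibitors of cyclin-dependent kinases, Cdkn2c (p18) was higher, by 1.25 (SDs 2.80 and 1.78). Cdkn1b (p27), a brake on G1 exit, reached 1 FPKM in all 64 cells, with medians of 21.3 and 24.9, and Cdkn1a (p21) differed by 0.02. No replication-dependent histone of 20 was higher in the 21 cells, and 6 were in the 6 cells; these genes form a family of near-identical copies, so the values of single members are uncertain.

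Mitotic genes followed. Over 5 lists with 91 genes, 9 were higher and 0 lower in the 21 cells, 49 higher in the 6 cells and 0 higher in the 15. Cdk1 differed by 1.56 (SDs 3.05 and 1.32), with 4.28 in the 6 cells and 0.47 in the 15. Its FPKM in the 6 cells was 0 (cell 42), 14.99 (cell 8), 24.8 (cell 6), 79.9 (cell 32), 99.3 (cell 47) and 260 (cell 49). Among the 15, cells 1 and 41 had 131 and 140 FPKM and the others at most 1.76, so the 15 were split between 2 high cells and 13 near 0. Plk1, a kinase of mitotic entry, differed by 1.02, and Cks1b, a binding partner of the kinase, by 1.07.

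Birc5 (survivin) and Cdca8 (borealin) are subunits of the chromosomal passenger complex that corrects attachment of chromosomes to the spindle. Birc5 was 0, 1.43 and 788 FPKM in the 21 cells and 0, 0.69 and 28.4 in the 43, a difference of 1.26 (SDs 2.62 and 0.94). Cdca8 reached 1 FPKM in 5 of 21 and 3 of 43 cells and differed by 1.25 (SDs 2.67 and 0.38). These differences came from few cells, since the medians of the 21 cells were 1.43 and 0. Cenpa, the histone that marks the centromere, was 0, 0 and 1510 FPKM in the 21 cells and 0, 0 and 39.7 in the 43, a difference of 1.30 (SDs 3.19 and 1.01). Cenpe, a kinetochore motor, and Kif23, a motor of cytokinesis, were each at 1 or more in 6 of 21 cells and 0 of 43, with differences of 1.15 and 1.03; the exact interval for 0 of 43 reaches 8.22% of cells for Cenpe.

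Some chromatin and cytoskeleton genes were found in more of the cells. Hmgb2, a chromatin protein of dividing cells, had the largest difference of the cell cycle genes. It was 0, 33.95 and 281 FPKM in the 21 cells and 0, 1.89 and 180 in the 43, a difference of 2.02 (SDs 2.87 and 2.13), with 3.60 in the 6 cells and 1.39 in the 15. It reached 1 FPKM in 16 of 21 cells and 25 of 43, and in 6 of the 6. Smc3, a core subunit of cohesin, differed by 1.65 (SDs 2.86 and 2.11) and nearly alike at both Top2a levels, 1.6 in the 6 cells and 1.68 in the 15. Mki67 differed by 1.30 (SDs 2.41 and 1.17), with 2.85 and 0.68 at the higher and lower Top2a level. Stmn1, the microtubule destabiliser stathmin, differed by 1.63 (SDs 4.43 and 3.13), with 4.32 and 0.56, and Tubb6, a beta tubulin, by 1.75. H2afx, the histone variant phosphorylated at DNA breaks, differed by 1.37.

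The genes did not occur together in every cell. Counting genes at an FPKM of 10 or more per cell, the median of the 91 mitotic genes was 4 in both classes, with a highest value of 50 in the 21 cells and 13 in the 43. Of the 46 replication genes the median was 8 in the 21 cells and 4 in the 43, with highest values of 28 and 22. Cell 49 held the most of both, 50 mitotic and 28 replication genes. Cells 10 and 53, with Top2a at only 1.69 and 1.23, held 36 and 34 mitotic genes but 5 and 8 replication genes.

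Cells 10 and 53 thus carried mitotic genes with Top2a close to the limit that selected them. Cell 10 had 788 FPKM of Birc5, 1510 of Cenpa and 106 of Mki67, with Cdk1 at 0.28. Cell 53 had 330 of Birc5, 211 of Ccnb1 and 104 of Cenpe, with Cdk1 at 0. Cells 47 and 6 showed the reverse, with 22 and 19 replication genes and 10 and 8 mitotic genes, and cell 47 had 261 FPKM of Mcm6, 338 of Pcna and 260 of Uhrf1. Cell 8, in spite of a Top2a of 41.6, had 2 mitotic and 4 replication genes, and its Mki67 was 0.19. Below the limit, cell 17, at a Top2a of 0.91, held 13 mitotic and 22 replication genes, with 330 FPKM of Mcm6 and 18.9 of Mki67, and cell 5, at 0, held 3 and 15. Fewer than 10 genes of each kind were found in 12 of the 21 Top2a-positive cells and 38 of the 43 negative cells, and in 1 of the 6 and 11 of the 15. In cells 6, 8, 10, 32, 42, 47, 49 and 53 the markers Ptprc of leukocytes, Cd3e of T cells and Cd79a of B cells were at 0. Of the 12 general leukocyte markers, 2 reached 10 FPKM in cells 8, 32, 42 and 47, 1 in cells 49 and 53 and 0 in cells 6 and 10. Their summed level in the 8 cells ran from 2.22 to 1036 FPKM, with class medians of 160 and 158. The 14 myeloid markers summed to 217 FPKM in cell 32, 57.5 in cell 47 and 24.7 in cell 8 and to at most 7.47 in the other 5, with class medians of 5.75 and 0.30. The part of these transcripts in the results was not tested.

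**Figure D3:**
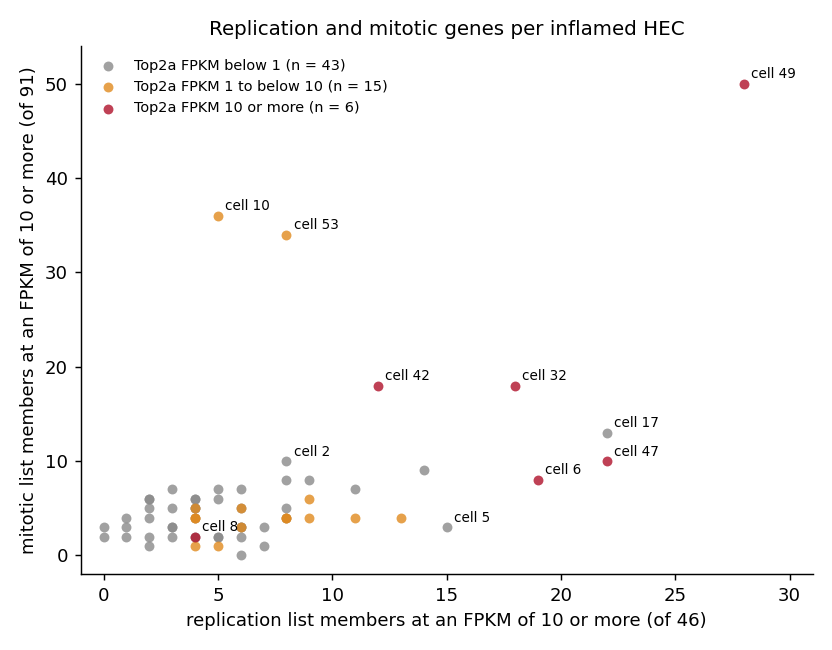
Number of the 46 replication genes (horizontal axis) and of the 91 mitotic genes (vertical axis) at an FPKM of 10 or more in each of 64 inflamed HEC, coloured by Top2a FPKM. Cell 49 stands apart on both axes (28 and 50), cells 10 and 53 on the mitotic axis alone (36 and 34), and most cells at a Top2a of 1 to below 10 lie among those below 1.

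Without cells 10, 49 and 53, left out after their values were seen and because they held the most mitotic genes, 16 cell cycle genes were higher and 1 lower, where 3.44% of 9816 genes were higher and 5.15% lower. Of these 16, 1 was mitotic and 9 were replication genes, and a fall in the mitotic count follows from how the cells were picked. The Cdk1 difference was 1.46 without them, and that of Birc5 was 0.51. Against 21 negative cells picked to match the 21 in how many genes they detect, 29 cell cycle genes were higher and 2 lower, where 6.24% of 9279 genes were higher and 6.02% lower.

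High endothelial genes were compared in the same cells. Of the 8 high endothelial markers, 0 were higher and 2 lower in the 21 cells, where 3.86% of all genes were higher and 4.06% lower. Fut7, the fucosyltransferase that completes the L-selectin ligand (chr2:25422351-25426374, GRCm38.p6), was 0, 11.1 and 613 FPKM at the lowest, median and highest of the 21 cells and 0, 174 and 1152 in the 43. It was detected at 1 FPKM in 16 of 21 cells (76.2%, 52.8 to 91.8) and 40 of 43 (93.0%, 80.9 to 98.5). The difference was -2.57 (SDs 3.14 and 2.61), with -3.53 in the 6 cells and -2.18 in the 15, so it had the same sign at both levels of Top2a while the ranges of the classes overlapped. When the 64 cells were split by Cdk1 at 1 FPKM in place of Top2a, the Fut7 difference was 0.0377. Fut7 in the 6 cells stood at 0.20 (cell 47), 0.95 (cell 42), 1.8 (cell 8), 10.8 (cell 32), 14.8 (cell 6) and 413 (cell 49). The cell with the most cell cycle genes was thus the one with the most Fut7 of the 6.

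Ccl21a, the chemokine that arrests rolling lymphocytes, was 87.5, 5086 and 115760 FPKM in the 21 cells and 220, 23559 and 141409 in the 43, a difference of -1.63 (SDs 3.45 and 2.43). Ccl21a has near-identical copies in the mouse genome between which fragments can be split, so its level is uncertain. Glycam1, a mucin that carries L-selectin ligands, was 308, 4262 and 107531 FPKM in the 21 cells and 207, 6649 and 115345 in the 43, a difference of -0.65 (SDs 2.73 and 2.45). It did not reach the limit in the 21 cells but was -1.61 in the 6, where the values were 336 (cell 42), 1092 (cell 49), 1225 (cell 47), 3458 (cell 6), 4272 (cell 32) and 17571 (cell 8). Chst4, the sulfotransferase of the ligand, differed by -0.44 in the 21 cells, -1.46 in the 6 and -0.03 in the 15, and was 0.27 FPKM in cell 42 against 533 in cell 8.

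In the 6 cells with the most Top2a, 5 of the 8 markers were lower, Glycam1, Chst4, Fut7, Gcnt1 (-1.22), which builds the branched core of the ligand, and Ccl21a, where 7.02% of all genes were lower. Ubd (-0.80), a ubiquitin-like protein, Enpp2 (-0.20), which makes lysophosphatidic acid, and Ackr1 (0.13), an atypical chemokine receptor of venules, did not reach the limit. In the 15 cells 2 were lower, Fut7 and Ccl21a (-1.15), where 7.49% of all genes were lower. The other 6 markers differed by less than the limit. All 6 cells kept Glycam1, Ccl21a, Ubd, Enpp2 and Ackr1 at 88.3 FPKM or above, so these 5 markers were present in each of them. The other 3 were below 1 FPKM in some of the 6 cells. Fut7 was 0.20 in cell 47 and 0.95 in cell 42, and Chst4 was 0.27 in cell 42. Gcnt1 was 0.35 in cell 32 and 0.65 in cell 47.

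**Figure D4:**
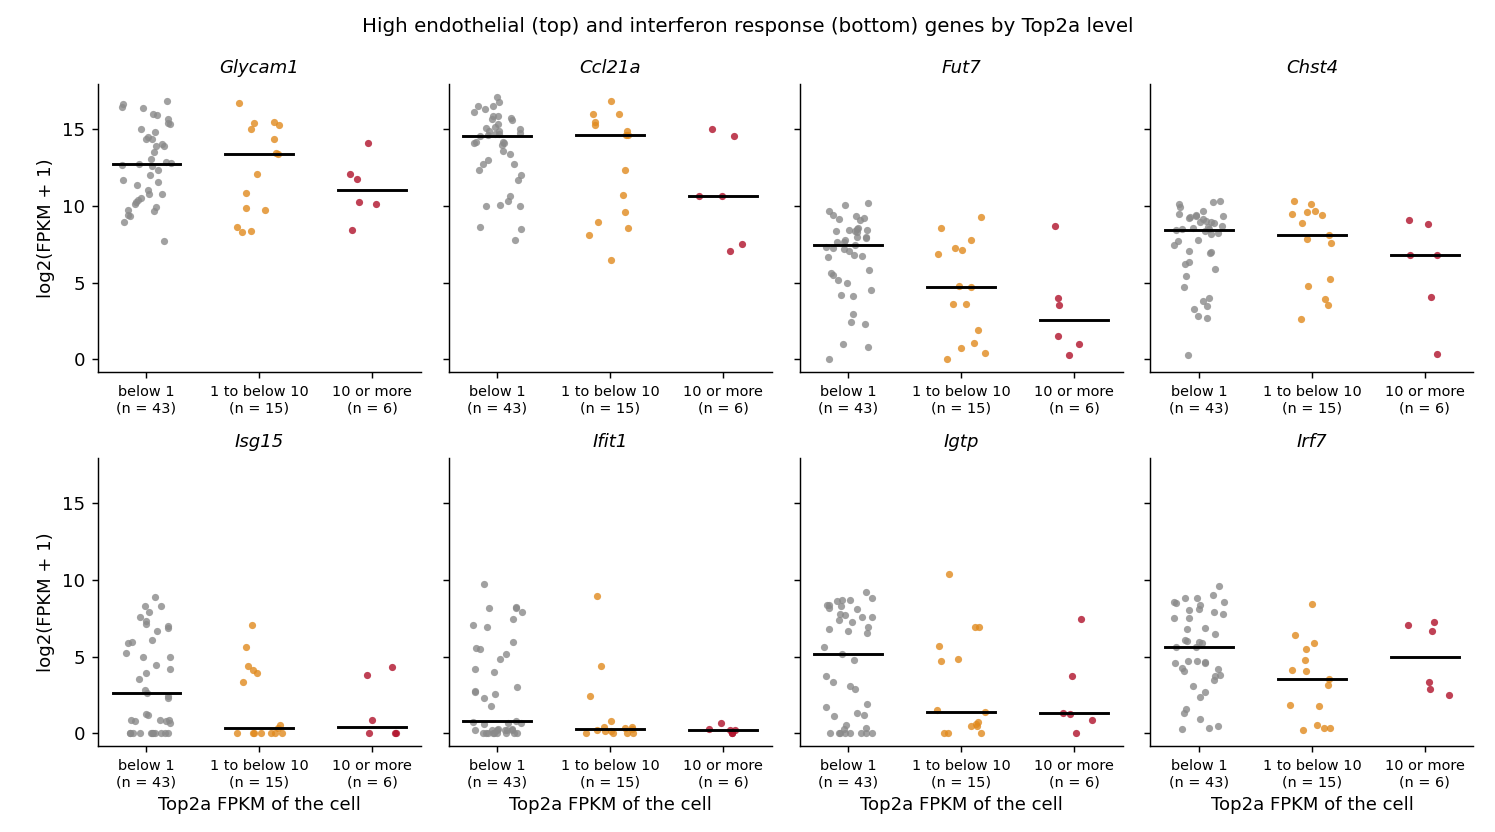
High endothelial genes (top row) and interferon response genes (bottom row) in each of 64 inflamed HEC as log2(FPKM + 1) on the vertical axis, split by Top2a FPKM on the horizontal axis; points are cells and bars are medians. Fut7 medians step from 174 FPKM below the Top2a limit to 25.2 at 1 to below 10 and 6.30 at 10 or more, and single cells of the classes overlap in every panel.

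The wider list of 16 sialomucins and glycosylation enzymes had 1 member higher and 2 lower in the 21 cells. Of all genes 3.86% were higher and 4.06% lower there. In the 6 cells 5 members were higher and 6 lower, where 17.2% of all genes were higher and 7.02% lower. St3gal4, a sialyltransferase of the ligand, was 0, 55.2 and 932 FPKM in the 21 cells and 0, 15.5 and 668 in the 43, a difference of 1.26 (SDs 3.15 and 3.02), in the direction opposite to Fut7. Emcn (endomucin), a sialomucin of veins and capillaries, differed by -1.61 (SDs 2.63 and 1.56), but by 0.33 in the 6 cells and -2.38 in the 15, so its signs differed between the levels of Top2a. Chst2, a second sulfotransferase, was at -0.68 in the 21 cells and -1.78 in the 6. Of 16 adhesion molecules of lymphocyte entry, 0 were higher and 0 lower: Icam1 differed by -0.13, Selp (P-selectin) by -0.45, Sele (E-selectin) by 0.28 and Vcam1 by -0.55.

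Genes of the interferon response were the list with the most lower members. Of 28, 0 were higher and 7 lower in the 21 cells, where 4.06% of all genes were lower, and the list median was -0.31. The lower members numbered 2, with 1 higher, when the cells were split by Mki67, where 3.91% of all genes were lower, and 3 with a pseudocount of 10, where 0.510% were. Ifit1, an antiviral RNA sensor, was 0, 0.15 and 485 FPKM in the 21 cells and 0, 0.71 and 837 in the 43, and it was at 1 or more in 3 of 21 cells (14.3%, 3.05 to 36.3) and 21 of 43 (48.8%, 33.3 to 64.5). Its difference was -1.83 (SDs 2.10 and 3.10). Igtp, an interferon-gamma induced GTPase, had medians of 1.55 and 35.2 FPKM and differed by -1.70 (SDs 3.11 and 3.47). Irf7, a transcription factor of the response, had medians of 10.8 and 48.7 and differed by -1.56, with -0.45 in the 6 cells and -2.01 in the 15.

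The other 4 were Isg15 (-1.48), a ubiquitin-like modifier, Irgm1 (-1.42) and Gbp4 (-1.20), GTPases of host defence, and Ifit3 (-1.11). Lower members numbered 11 and higher ones 2 in the 6 cells, where 7.02% of all genes were lower and 17.2% higher. In the 15 cells 7 were lower and 0 higher, where 7.49% of all genes were lower and 3.83% higher. Cxcl10, an interferon-induced chemokine counted on the chemokine list, went the other way: 0, 4.57 and 950 FPKM in the 21 cells and 0, 0.91 and 4454 in the 43, a difference of 1.25, with -0.14 in the 6 cells and 1.81 in the 15. Of 19 genes of antigen presentation, Tap2 (1.11) and H2-Eb1 (1.09) were higher and 0 lower in the 21 cells, where 3.86% of all genes were higher. In the 6 cells H2-Q7, Psmb8 and H2-Eb1 were higher and H2-Aa, H2-Ab1 and Nlrc5 lower. In the 15 cells Tap2 alone was higher and 0 were lower.

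**Figure D5:**
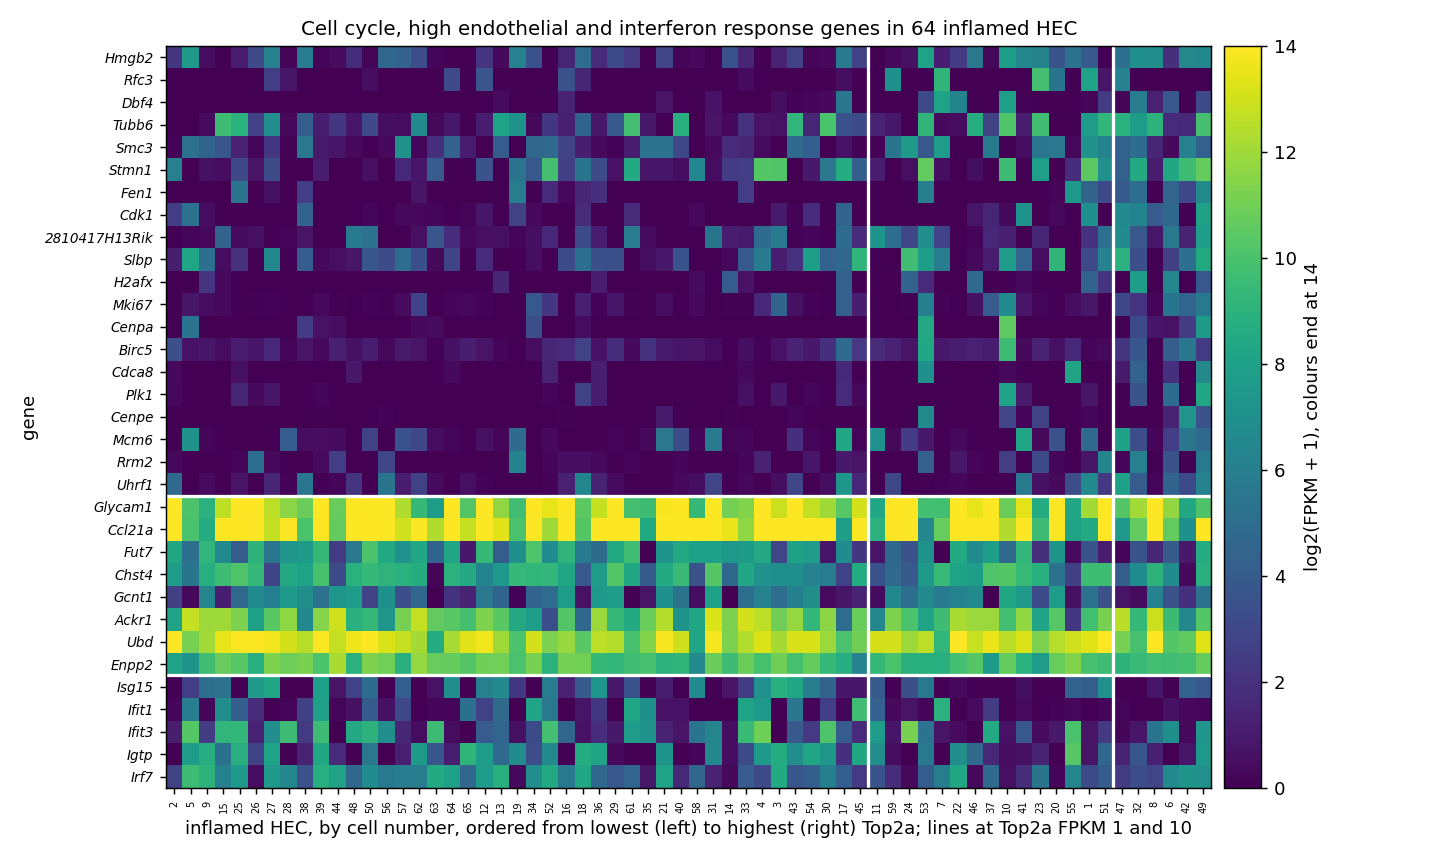
log2(FPKM + 1) of cell cycle (top block), high endothelial (middle) and interferon response genes (bottom), on the vertical axis, in each of 64 inflamed HEC ordered from lowest to highest Top2a on the horizontal axis, with white lines at a Top2a FPKM of 1 and 10; colours end at 14. The cell cycle genes are bright in scattered cells, among them 10 and 53 in the middle section and 49 at the right edge, and not across the section at 1 to below 10.

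The counts for metabolic and growth lists stand beside 3.86% of all genes higher and 4.06% lower in the 21 cells. Of 24 genes of Myc targets and ribosome biogenesis, 3 were higher and 0 lower: Ranbp1 (1.33), a regulator of nuclear transport, Ddx21 (1.25), an RNA helicase of ribosome making, and Nolc1 (1.22), a nucleolar chaperone. Myc itself differed by -0.74. Of 22 genes of oxidative phosphorylation, 0 were higher and 3 lower, Uqcrc1, Atp5a1 (-1.59) and Atp5g1. In the 6 cells 4 of the 22 were higher and 4 lower, where 17.2% of all genes were higher and 7.02% lower. No common direction was seen in those 6 cells. The 15 cells had 0 higher and 4 lower, where 3.83% of all genes were higher and 7.49% lower. Capillary genes Cd36 (1.02), Rbp7 (1.06) and Car4 (1.08) were higher, 3 of 15, but Car4 reached 1 FPKM in 5 of 21 cells only. Klf4 (-1.43) was the only lower member of 12 flow-responsive and anticoagulant genes, of which 7 had a difference above 0. Vwf (-1.09), von Willebrand factor, was the only lower member of 12 venous genes, of which 4 had a difference above 0. At a Top2a of 10 or more Vwf did not reach the limit.

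Over all 18 lists outside the cell cycle, 13 of 308 genes were higher and 21 lower in the 21 cells, 4.22% and 6.82% beside 3.86% and 4.06% of all genes. In the 6 cells 47 were higher (15.3%) and 40 lower (12.99%), where 17.2% of all genes were higher and 7.02% lower. In the 15 cells 15 were higher (4.87%) and 31 lower (10.06%), where 3.83% of all genes were higher and 7.49% lower. Of 14 genes on the dissociation and heat shock list, 2 passed the limit in the 21 cells. Hspb1 (1.30), a small heat shock protein, was higher and Dnajb1 (-1.25), a heat shock co-chaperone, lower. In the 6 cells Egr1 and Hspb1 were higher and Fos and Dnajb1 lower. On the lists of lymphocyte, leukocyte, myeloid, erythroid, platelet, pericyte and fibroblastic reticular markers no gene passed the limit in the 21 cells. In the 6 cells the myeloid and dendritic marker Zbtb46 was higher, and the T lymphocyte marker Lck and the platelet marker Pf4 were lower.

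Apart from the cell cycle genes, the 15 genes with the largest differences in each direction were taken among genes that reached 1 FPKM in at least 50% of either class. Cyb5r3, a cytochrome b5 reductase, had the largest positive difference. It was 0.26, 285 and 1715 FPKM in the 21 cells and 0, 40 and 750 in the 43, a difference of 2.70 (SDs 2.61 and 3.21), with 2.35 and 2.84 at the higher and lower Top2a level. It was at 1 or more in 20 of 21 cells and 30 of 43. Adh5, which clears formaldehyde and S-nitrosoglutathione, was 0, 24.1 and 594 FPKM in the 21 cells and 0, 0.47 and 271 in the 43, a difference of 2.48 (SDs 3.31 and 2.66). It was at 1 or more in 16 of 21 and 14 of 43 cells, and in 6 of the 6.

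Of the others, Farsa (2.11) is a subunit of phenylalanyl-tRNA synthetase, Sec11a (2.03) of the signal peptidase, and Exosc8 (1.97) and Exosc4 (1.91) of the RNA exosome. Pno1 (1.74) serves small ribosomal subunit assembly and Matr3 (1.88), a protein of the nuclear matrix, was detected in 21 of 21 cells and 33 of 43. Exosc8, Exosc4 and Pno1 differed by 3.24, 3.20 and 3.05 in the 6 cells. The rest were Ccdc101 (1.96), Ms4a6d (1.90), Bet1 (1.90), a SNARE of the early secretory path, Eno1b (1.83), Tmem109 (1.78), Me1 (1.75), the cytosolic malic enzyme, and Akr1b8 (1.74). Eno1b is a near-identical copy of enolase 1, and Eno1 differed by -1.36, so fragments may be split between them and both values are uncertain. In a split by Cdk1 the sign turned for Bet1 (-1.31) and Eno1b (-0.12), and by Mki67 for Ccdc101 (-0.34) and Akr1b8 (-0.17).

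Among the genes with lower values, Cdc42se2, an effector of the GTPase Cdc42, was 0, 0.79 and 36.1 FPKM in the 21 cells and 0, 16.9 and 854 in the 43, a difference of -2.62 (SDs 1.68 and 2.82). It was at 1 or more in 10 of 21 cells and 36 of 43. Fut7 was next, then Tmed3 (-2.48), a cargo receptor of the early secretory path, with medians of 1.29 and 53.5 FPKM. Uqcrc1, a core subunit of respiratory complex III, had medians of 7.53 and 170 FPKM and differed by -2.42 (SDs 3.55 and 3.14). Txnip, which inhibits thioredoxin and glucose uptake, had medians of 0.93 and 26.4 and differed by -2.35 (SDs 2.84 and 2.92). These 5 genes had the same sign at both levels of Top2a. In a split by Cdk1 the sign turned for Fut7, Uqcrc1 (0.43) and Txnip (0.10), and by Mki67 for Uqcrc1 (0.71).

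Of the remaining 10, Atp5d (-2.24) is a subunit of the ATP synthase, Ndufa6 (-2.01) of respiratory complex I, and Fis1 (-2.01) a factor of mitochondrial fission. Mrps36 (-2.06) encodes a mitochondrial protein. Cyb5r1 (-2.12), Copb2 (-2.05), a coat protein of COPI vesicles, Abhd4 (-2.04), Gas7 (-1.99), Snx6 (-1.92), of the retromer path, and Bend4 (-1.91) were the others. Atp5d, Ndufa6, Fis1, Mrps36 and Snx6 turned sign in a split by Cdk1, to between 0.0772 and 0.47, and Atp5d (0.61) also by Mki67. For all 15 higher and all 15 lower genes the difference was smaller than the larger SD over cells, and the ranges overlapped.

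Top2a reached 1 FPKM in 21 of 64 inflamed HEC (32.8%, exact interval 21.6 to 45.7), 3 of 79 homeostatic HEC (3.80%, 0.790 to 10.7), 0 of 32 BEC (upper bound 10.9%) and 0 of 44 dedifferentiated HEC (upper bound 8.04%). At an FPKM of 10 or more the counts were 6, 2, 0 and 0. The 3 homeostatic cells were unlike each other. Cell 62, at a Top2a of 643, had 61 mitotic and 18 replication genes at an FPKM of 10, with Mki67 at 110 and Cdk1 at 115. Cell 48, at 60.4, had 3 and 8 such genes, and cell 7, at 6.85, had 3 and 6, with Mki67 and Cdk1 at 0 in both.

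The same split of the homeostatic HEC, 3 cells against 76, gave 119 of 241 cell cycle genes higher and 3 lower. Over all, 33.2% of 9633 genes were higher and 7.34% lower, and the median difference was 0.94 over the 241 genes and 0.42 over the 9633. Fut7 had a difference of 0.61 there, against -2.57 in inflamed cells. Cdc42se2 (1.30), Uqcrc1 (1.01) and Txnip (2.11) were also of opposite sign, and Adh5 (-0.55) was opposite to its inflamed value. Glycam1 (-3.63), Ccl21a (-1.82), Tmed3 (-1.87) and Cyb5r3 (1.44) had the same sign in both. With 3 cells, of which 1 held most of the cell cycle genes, these values describe those cells.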

How the data were processed

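The authors deposited a table of FPKM values with 2 decimals for 24049 gene symbols and 220 cells. CASAVA 1.8, RSEM 1.2.18 and the build mm10 are named per the submitters' processing notes; roles and filters on cells: not given in the sources used here. Count models were not applied to FPKM. Depth, approximated from the steps of low values over 2585 genes with 1 transcript, ran from 698870 to 3406580 fragments in the inflamed cells. Amplified fragments without molecular tags are not independent molecules, and exact Clopper-Pearson 95% intervals cover counting error over cells only. Inflamed cells 43 and 60 were averaged as FPKM. The pseudocount was 1, no scaling was added and doublets were not called; cells with 3 markers of another type at an FPKM of 10 are counted in the text. Genes named beside the lists were the 15 of largest difference each way among those reaching 1 FPKM in 50% of either class, without cell cycle, clone, predicted and ribosomal protein names; list members could be named in addition. Of the list symbols, 3 had no match. The cells, lists and rules were chosen with earlier results of these data known. RefSeq promoter windows were found for 16778 of 24048 symbols. Computed differences are descriptive. Their formula was run on resampled cells with changes put in, which checks the arithmetic only. Python 3.11.15, numpy 2.4.6, pandas 2.3.3 and scipy 1.17.1 were used.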

Additional observations from a re-analysis of the deposited data

How the results depend on the processing

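Counts of genes, list members and Top2a-positive cells, medians and the differences of 45 named genes were recomputed. There were 16 alternatives, 2 of them (Top2a at 1 to below 10, and leaving out cells 10, 49 and 53) chosen after seeing the data. Fut7 is the only high endothelial marker among the 45 genes, which hold no gene of the interferon list. Apart from the levels of Top2a, differences of other genes in the text were not recomputed. Genes higher and lower, 363 and 382 as reported, numbered 934 and 1127 with a pseudocount of 0.1, 36 and 48 with 10, 226 and 248 among genes reaching 1 FPKM in 50% of either class, 1418 and 1936 by arithmetic means and 1785 and 727 at a Top2a of 10 or more. Higher genes numbered 741 in a split by Mki67, 689 by Cdk1 and 579 in cells matched on detected genes, and lower genes 713 at a Top2a of 1 to below 10. Cell cycle members higher, 34 as reported, were 85 and 5 with those pseudocounts, 11 with that filter, 121 by arithmetic means, 14 for Top2a above 0, 127 and 9 at the higher and lower Top2a level, 68 by Mki67 and 16 without cells 10, 49 and 53. Members lower, 0 as reported, were 16 by arithmetic means, 4 for Top2a above 0, 2 in matched cells and at a Top2a of 1 to below 10, and 1 by Mki67, with cells 43 and 60 as 2 cells and without those 3 cells. High endothelial markers lower, 2 as reported, were 1 by arithmetic means and for Top2a above 0, 4 by Mki67 and 5 at a Top2a of 10 or more. Interferon members lower, 7 as reported, were 3 with a pseudocount of 10, 4 for Top2a above 0, 11 at a Top2a of 10 or more and 2 by Mki67. Of 45 named genes, 31 kept their sign throughout. By Cdk1 the sign turned for Bet1 (-1.31), Eno1b (-0.12), Fut7 (0.0377), Uqcrc1 (0.43), Txnip (0.10), Atp5d (0.47), Mrps36 (0.31), Fis1 (0.28), Ndufa6 (0.0772), Snx6 (0.26) and Rfc3 (-0.0378), by Mki67 for Ccdc101 (-0.34), Akr1b8 (-0.17), Uqcrc1 (0.71), Atp5d (0.61) and Rfc3 (-0.63), at a Top2a of 10 or more for Akr1b8 (-0.12), and for Top2a above 0 for Copb2 (0.0886). The cause was not tested. Cells above a Top2a of 0 numbered 45 inflamed HEC, 17 homeostatic HEC, 7 BEC and 0 dedifferentiated HEC, and 6 inflamed HEC were at 10 or more. No paired analysis was possible because the numbers in the labels name single cells and the classes share none. With 21 and 43 cells of 1 sample, and 6 at high Top2a, single cells carry many of these values.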
